A study of Mus musculus with 9 samples.

Results

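Osteopontin, the product of Spp1, and 7 genes for its cell surface receptors (Cd44, Itgav, Itgb1, Itgb3, Itgb5, Itga4 and Itga9) were followed in mouse testis at postnatal day 10. The 8 genes were chosen by name, with the difference between the study's groups already known, and were found in 19 of the 29661 rows of the deposited expression table, or as 8 of 23389 genes. RNA-seq libraries came from C57BL/6 testes of mice labelled Lin28a knockout (3 libraries) and wild type (3 libraries). The titles of the knockout libraries carry the letters cKO, and neither the allele, nor any Cre driver, nor whether a library is 1 animal or a pool is given in the labels. Another 3 samples of LIN28A CLIP, a sequencing of the RNA that LIN28A protein holds, were not analysed here.

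The table gives 1 FPKM value per group (fragments scaled to transcript length and library size) in columns named case and control, read as the knockout and the wild-type libraries from those names alone. No value per library and no sequencing depth can be read from it, so the values below have no SD and no n. Lin28a itself, the targeted gene, stood at 23.4 FPKM in case and 8.82 FPKM in control. It was 2.66-fold higher where the knockout was expected, which goes against that label, so each direction below is that of the case-labelled against the control-labelled libraries and no more. The columns are called the case column and the control column below, by those labels. Markers of the main testis cells were present in both columns, among them Clu of Sertoli cells (2028 and 2251 FPKM), Insl3 of Leydig cells (99.6 and 76.9 FPKM) and Sycp3 of meiotic germ cells (69.2 and 125 FPKM). The tissue is a mixture, and fewer cells of a type cannot be told apart from less RNA per cell.

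Osteopontin is a secreted phosphoprotein of bone matrix, kidney and activated macrophages that carries an integrin-binding RGD site. Integrins are pairs of an alpha and a beta chain: the product of Itgav pairs with those of Itgb1, Itgb3 or Itgb5 and binds the RGD site, while the products of Itga4 and Itga9, each paired with that of Itgb1, bind a neighbouring site that thrombin cleavage exposes. CD44, the hyaluronan receptor, is a further receptor of osteopontin. In the testis, the integrin of Itga6 and Itgb1 is a known surface marker of cell fractions rich in spermatogonial stem cells.

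The promoters of Spp1 and of 2 of its receptor genes are shown because they bear on how differently these genes are built. Each sequence is the 250 bases before the start of the deposited rows, on the gene's plus strand, from RefSeq (GRCm38.p6). They lie at chr5:104434861-104435110 for Spp1, chr2:83724147-83724396 for Itgav and chr8:128685404-128685653 for Itgb1. Capitals mark matches, on either strand, to 8 motifs. RUNX proteins were searched for as ACCACA, members of the ETS family as GGAAGT, and USF, MYC and MITF by their shared E-box, CACGTG. The AP-1 site of Jun and Fos proteins was searched for as TGANTCA, that of SP1 as GGGCGG and that of NFAT proteins as GGAAAA. The core promoter element TATA was searched for as TATAAA. The last motif was the CCAAT box. No matches overlapped in the windows of the members.
Spp1: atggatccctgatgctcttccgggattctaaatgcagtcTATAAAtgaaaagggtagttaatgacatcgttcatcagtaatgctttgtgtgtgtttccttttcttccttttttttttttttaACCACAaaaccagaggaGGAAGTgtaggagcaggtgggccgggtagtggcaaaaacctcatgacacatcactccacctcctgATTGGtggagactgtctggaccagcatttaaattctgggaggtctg
Itgav: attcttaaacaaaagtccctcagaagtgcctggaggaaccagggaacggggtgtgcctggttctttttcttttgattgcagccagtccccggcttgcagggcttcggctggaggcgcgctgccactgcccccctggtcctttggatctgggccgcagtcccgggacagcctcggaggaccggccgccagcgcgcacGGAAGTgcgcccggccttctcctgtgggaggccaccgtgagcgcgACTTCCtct
Itgb1: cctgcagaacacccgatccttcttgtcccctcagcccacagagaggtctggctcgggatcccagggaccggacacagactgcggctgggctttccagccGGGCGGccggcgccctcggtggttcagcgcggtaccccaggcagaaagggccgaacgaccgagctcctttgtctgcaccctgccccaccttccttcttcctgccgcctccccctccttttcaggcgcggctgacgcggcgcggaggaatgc

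The Spp1 window held 4 matches. The letters TATAAA stood at -211 to -206 from the start, a RUNX match at -128 to -123, an ETS match at -111 to -106 and CCAAT, on the minus strand, at -46 to -42. Of 32851 RefSeq promoter windows of the same length, 12.4% held the TATA letters, 14.0% the RUNX letters, 19.7% the ETS letters and 33.8% the CCAAT letters. Itgav held 2 ETS matches, at -54 to -49 and, on the minus strand, at -9 to -4. Itgb1 held 1 SP1 match at -151 to -146, Itgb5 held 3 and Itga4 held 1, where 32.7% of all windows held those letters. Itga4 also held a RUNX match at -60 to -55, and Cd44 held an NFAT match at -205 to -200, against 20.4% of all windows. No member window held the E-box letters (6.02% of all windows) or the AP-1 letters (6.75%). These matches describe letters in a window and not binding.

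Base composition was lower in G and C, and in CpG, for Spp1 than for the 5 receptor genes with a window. The Spp1 window was 43.6% G or C with 3 CpG, below the median of all windows (52.4% and 6 CpG). The windows of Itgb1 (68.0%, 21 CpG), Itgb5 (65.2%, 18 CpG) and Itgav (64.4%, 18 CpG) lay above the upper quartile of all windows, which was 61.2% and 16 CpG. Itga4 was as rich in G and C (64.0%) but held 6 CpG, and Cd44 lay near the middle at 56.4% with 5 CpG. No window is given for Itgb3 and Itga9.

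**Figure D1:**
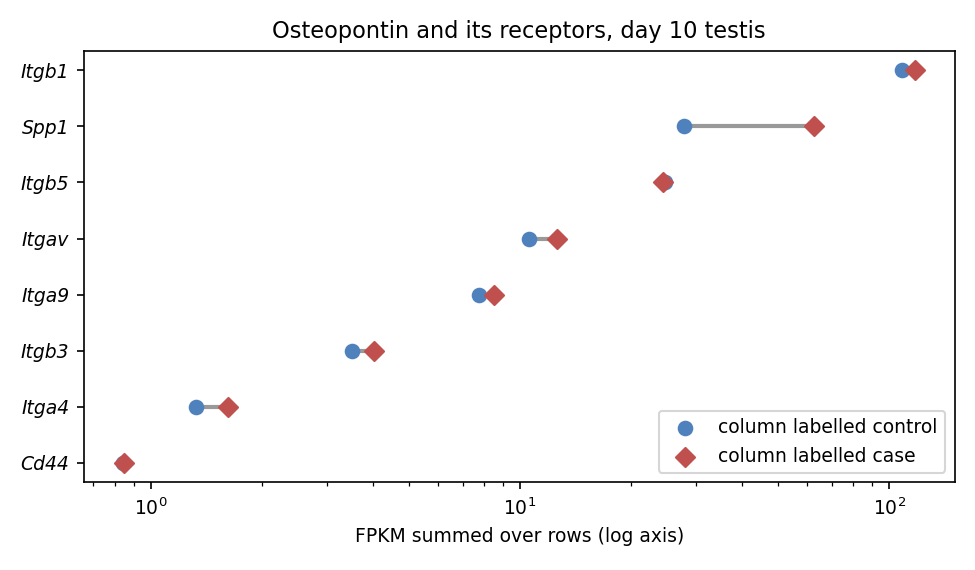
FPKM of each gene, summed over its transcript rows, on a log axis, with circles for the control column and diamonds for the case column. The points of Spp1 stand apart (27.9 and 62.7 FPKM), while the 2 points of each receptor gene differ by at most 1.22-fold.

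The receptor genes spanned more than 2 orders of magnitude in level, which FPKM, being scaled to length, allows to be compared between genes. Itgb1, the beta chain shared by most of these integrins, stood highest, at 118 FPKM in the case column and 108 FPKM in the control column. Its mean level was above that of 96.8% of the 12665 genes with a mean of at least 1 FPKM. Spp1 came next, at 62.7 and 27.9 FPKM, with a mean level above 87.6% of genes. Itgb5 followed at 24.4 and 24.8 FPKM, Itgav at 12.6 and 10.6 FPKM, and Itga9 at 8.51 and 7.75 FPKM. Itgb3, known from platelets and osteoclasts, was at 4.04 and 3.51 FPKM, Itga4, known from leukocytes, at 1.62 and 1.32 FPKM, and Cd44 at 0.847 and 0.844 FPKM. The order was the same in both columns. Without values per library, whether neighbours in it differ beyond their spread cannot be said; Spp1 and Itgb5 were close in the control column and well apart in the case column.

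Transcripts of the chains that can pair were present at unequal levels. Itgb1 transcripts exceeded the sum of the alpha chains Itgav, Itga4 and Itga9 5.18-fold in the case column (118 against 22.7 FPKM) and 5.52-fold in the control column (108 against 19.6 FPKM). With all 12 alpha chains known to pair with it, Itga6 included, the ratio was 1.38 in the case column and 1.54 in the control column. Of the other member beta chains that pair with Itgav, Itgb5 exceeded Itgb3 6.04-fold and 7.06-fold in the case and control columns. Itgb8, a partner of Itgav outside the members, stood between them at 8.06 and 7.02 FPKM. Of the alpha chains that bind the thrombin-exposed site, Itga9 exceeded Itga4 5.25-fold and 5.85-fold. Spp1 stood 74.0-fold above its receptor gene Cd44 in the case column and 33.1-fold above it in the control column.

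Spp1 was at 62.7 FPKM in the case column and 27.9 FPKM in the control column, 2.24-fold higher, or 1.14 on the log2(FPKM + 1) scale. The receptor genes showed no difference of that size. The ratio of case to control was 1.19 for Itgav, 1.08 for Itgb1, 1.15 for Itgb3, 1.22 for Itga4, 1.10 for Itga9 and 0.985 for Itgb5, and Cd44 differed by 0.0030 FPKM. Of the 6 receptor genes with a mean of at least 1 FPKM, 5 were thus higher and 1 lower in the case column, and Cd44, below that level, was nearly equal in both columns. Over all genes with a mean of at least 1 FPKM, 60.8% were higher in that column, the median ratio was 1.03, and the central 90% of genes had ratios from 0.814 to 1.28, a range that holds all 7 receptors and not Spp1. The members were proposed with this difference known, so it is described and not tested.

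A difference of at least 1.5-fold was found in 1 member, Spp1, among the 7 with a mean of at least 1 FPKM; Cd44 was below that level. Over all such genes, 2.72% passed that fold, with 1.31% higher and 1.41% lower in the case column. Among all 12665 such genes, 24 had a larger fold than Spp1 toward the case column, and 31 had a larger fold than that of Spp1 toward the control column. Ratios scatter more at low levels, so each member was also set among genes of like level. These had a mean of at least 1 FPKM and within a factor of 2 of the member's own. Of the 3142 such genes around Spp1, 0 had a larger fold in either direction, and the central 90% ran from 0.877 to 1.16. Spp1 was chosen with its difference known, so its place among these genes adds no support to that difference. Itgav lay at percentile 92.9 of 5387 genes, Itgb1 at 85.8 of 1006, Itga4 at 77.9 of 1926, Itgb3 at 75.0 of 3440, Itga9 at 71.7 of 4877, Cd44 at 42.1 of 871 and Itgb5 at 33.9 of 4812. For Itga4 and Cd44 the filter at 1 FPKM cut off the lower part of the range. Cd44 was thus set only among genes above its own level.

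**Figure D2:**
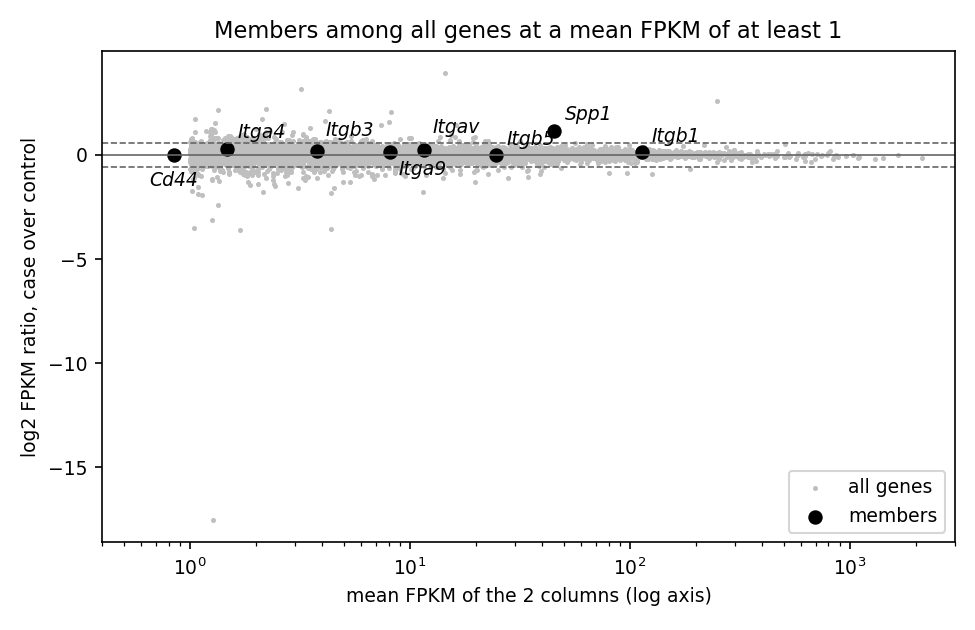
Each grey point is a gene with a mean of at least 1 FPKM and values above 0 in both columns, by mean FPKM (log axis) and log2 ratio of case to control, with the 8 osteopontin and receptor genes in black and dashed lines at 1.5-fold. Spp1 lies above the upper line, and the 7 receptor genes lie between the lines.

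In the authors' deposited table, 10 of the 19 member rows had a test result and 9 had the status NOTEST. None of the 10 passed a q-value of 0.05 (0.0514% of all 13629 tested rows did), and 2, both of Spp1, had an unadjusted p under 0.05 (1.28% of all tested rows). The main Spp1 row, NM_009263, was listed by the authors' deposited table at p = 1.07e-04 with a q-value of 0.183, the 8th smallest p, directly after the 7 rows that passed. The row before it, of Morf4l2, had q = 0.0132 and the row after it, of Tex101, q = 0.292 in the authors' deposited table. The 7 tested rows of receptor genes had p from 0.321 for Itgav to 0.879 for the main row of Itgb5 in the authors' deposited table. These p-values come from the contrast for which Spp1 was chosen and add no support to its difference.

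Transcript rows showed where the Spp1 signal lay. All 5 Spp1 rows cover mm10 chromosome 5, 104435111 to 104441053. NM_009263 was at 56.7 and 26.0 FPKM in the case and control columns, which is 90.5% and 93.2% of the gene's sum. NM_001204202 was at 4.87 and 1.70 FPKM (7.78% and 6.09% of the sum), and NM_001204233 at 1.07 and 0.201 FPKM (1.71% and 0.720%). The rows NM_001204201 and NM_001204203 were listed at 0 in both columns. All 3 rows with a value were thus higher in the case column, 2.18-fold, 2.87-fold and 5.32-fold, and the main row held over 90% of the sum in each column. The sources used here do not say how reads shared by overlapping transcripts were divided between rows, so the split between rows is less certain than the sum.

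**Figure D3:**
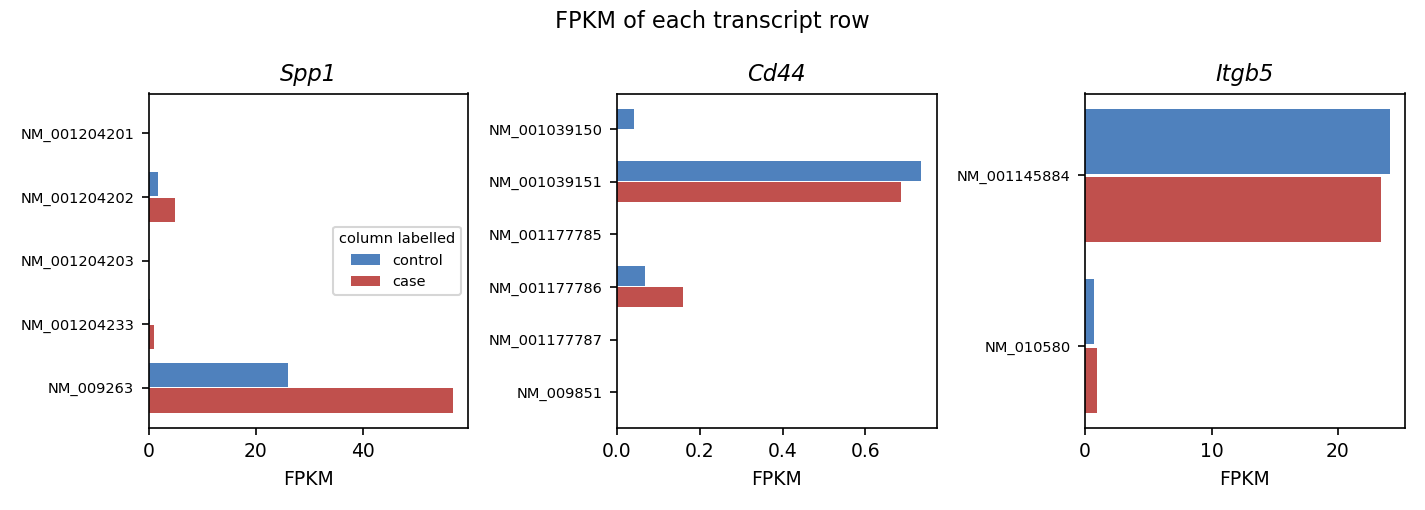
FPKM of each deposited transcript row of Spp1, Cd44 and Itgb5, with bars from 0 for the control and case columns and a separate scale for each gene. The main Spp1 row is at 56.7 FPKM in case and 26.0 in control, while the main rows of Cd44 and Itgb5 are slightly lower in case.

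Cd44 is a gene of many splice forms, and its 6 rows (chromosome 2, 102811142 to 102901665) carried little signal. NM_001039151 was at 0.686 and 0.735 FPKM in the case and control columns, 81.1% and 87.1% of the sum. NM_001177786 was at 0.160 and 0.0675 FPKM, NM_001039150 was listed at 0 in the case column and at 0.0415 FPKM in the other, and NM_001177787 was under 0.001 FPKM in the case column and listed at 0 in the other. NM_001177785 and NM_009851 were listed at 0 in both columns. The authors tested none of these rows, and at this level the division among splice forms cannot be read.

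Itgb5 (chromosome 16, 33829665 to 33949338) had its signal in NM_001145884, at 23.4 and 24.1 FPKM, with NM_010580 at 0.961 and 0.685 FPKM, or 3.94% and 2.77% of the sum. Its main row was thus lower and its minor row higher in the case column. Itga9 (chromosome 9, 118606709 to 118901003) had its signal in NM_133721 alone, NM_001113514 being listed at 0 in both columns. Itgav (NM_008402; chromosome 2, 83724397 to 83806916), Itga4 (NM_010576; chromosome 2, 79255426 to 79428988), Itgb1 (NM_010578; chromosome 8, 128685654 to 128733579) and Itgb3 (NM_016780; chromosome 11, 104608000 to 104670471) had 1 row each. Itgav, Itga4 and Cd44 thus share a chromosome.

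Spp1 lies in a cluster with 4 related genes for acidic matrix proteins of bone and tooth, Dspp, Dmp1, Ibsp and Mepe. Dspp and Mepe were listed at 0 in both columns, Ibsp was at 0.124 and 0.128 FPKM and Dmp1 at 0.0780 and 0.0480 FPKM in the case and control columns. Spp1 was therefore the only gene of this family above 1 FPKM in these columns. On the other side, 18.4 kb beyond the end of Spp1, Pkd2, the gene of the cation channel polycystin, was at 26.4 and 21.0 FPKM, 1.255-fold higher in the case column. Thoc2l, 67.3 kb away, was at 7.04 and 6.37 FPKM, 1.11-fold higher, and the row NR_030673, 84.7 kb away, was at 6.55 and 5.40 FPKM, 1.21-fold higher. No other row within 300 kb reached the ratio of Spp1 with a mean of at least 1 FPKM. The window was chosen after the values were seen.

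Beyond the members, all 7 other alpha chains with a mean of at least 1 FPKM, of 15 listed, were higher in the case column, with a median difference of 0.20 on the log2(FPKM + 1) scale against 0.03 over all genes and 0.14 over the 6 receptors that passed the same filter; 0 of the 7 reached 1.5-fold. Of all genes with that mean, 60.8% were higher in the case column, the share to set beside each list count below. Itga6, a laminin receptor chain, was at 45.3 and 36.4 FPKM, Itga7 at 3.83 and 3.36 FPKM and Itga3 at 3.22 and 2.62 FPKM. Among the other beta chains only Itgb8, which also pairs with Itgav, had a mean of at least 1 FPKM, at 8.06 and 7.02 FPKM. The leukocyte beta chains Itgb2, at 0.673 and 0.805 FPKM, and Itgb7, a partner of Itga4, at 0.474 and 0.846 FPKM, were below 1 FPKM.

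The 3 most abundant other ligands of the same receptors were present at levels like that of Spp1, while 5 of the 15 found were below 1 FPKM. Mfge8, an RGD protein that bridges dying cells to phagocytes, was at 51.2 and 54.5 FPKM, the basement membrane protein Nid1 at 50.9 and 44.5 FPKM, and fibronectin (Fn1) at 45.0 and 44.2 FPKM. Of the 10 ligand genes with a mean of at least 1 FPKM, 8 were higher and 2 lower in the case column, with a median of 0.19. Vegfa, an angiogenic growth factor, was the 1 past 1.5-fold, at 7.53 and 4.97 FPKM summed over 6 rows, all 6 of which have status FAIL in the authors' deposited table and so no usable p-value. Spp1 was thus above these 3 most abundant ligands in the case column and below them in the control column.

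Enzymes that act on osteopontin had no shared direction. Of 7 with a mean of at least 1 FPKM, 3 were higher and 4 lower in the case column, with a median of -0.0042 and 0 past 1.5-fold. The metalloprotease Mmp2 was at 30.1 and 23.0 FPKM, the crosslinking enzyme Tgm2 at 24.0 and 21.7 FPKM and the phosphatase Alpl at 10.00 and 10.0 FPKM. Fam20c, the kinase that phosphorylates secreted proteins such as osteopontin, was at 3.26 and 2.77 FPKM, and thrombin (F2) was at 0.285 and 0.428 FPKM; these 2 were singled out after their values were seen.

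Genes for partners of hyaluronan and CD44, and for integrin adhesion, had small median differences, against 0.03 over all genes. Of 22 hyaluronan and CD44 partner genes listed, 17 had a mean of at least 1 FPKM. Among these, 12 were higher and 5 lower in the case column, with a median of 0.03 and 0 past 1.5-fold. Radixin (Rdx), which links CD44 to actin, was at 79.2 and 78.3 FPKM, the CD44-cleaving protease Mmp14 at 80.0 and 66.5 FPKM and the splicing regulator Khdrbs1 at 56.6 and 55.3 FPKM. Of 26 integrin adhesion genes listed, 24 had a mean of at least 1 FPKM. Among these, 20 were higher and 4 lower, with a median of 0.08. Zyx was at 102 and 91.3 FPKM, Vcl at 82.1 and 80.3 FPKM and Ilk, the integrin-linked kinase, at 59.5 and 58.6 FPKM. Parvb, a partner of that kinase, was the 1 past 1.5-fold, at 2.89 and 4.58 FPKM (the authors' deposited table gives p = 0.0971).

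Of 20 transcription factor genes tied to Spp1 in bone and other tissues, 16 had a mean of at least 1 FPKM. Among these, 13 were higher and 3 lower in the case column, with a median of 0.11. Usf1 was at 41.4 and 37.5 FPKM, Jun at 33.7 and 30.5 FPKM and Smad4 at 32.5 and 31.4 FPKM. Fos was the 1 past 1.5-fold and was lower, at 1.98 and 3.22 FPKM (the authors' deposited table gives p = 0.178). Runx2, the bone regulator whose family's motif letters stand in the Spp1 window, was at 0.161 and 0.101 FPKM, and Ets1 was at 9.11 and 8.06 FPKM; both were singled out after their values were seen.

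**Figure D4:**
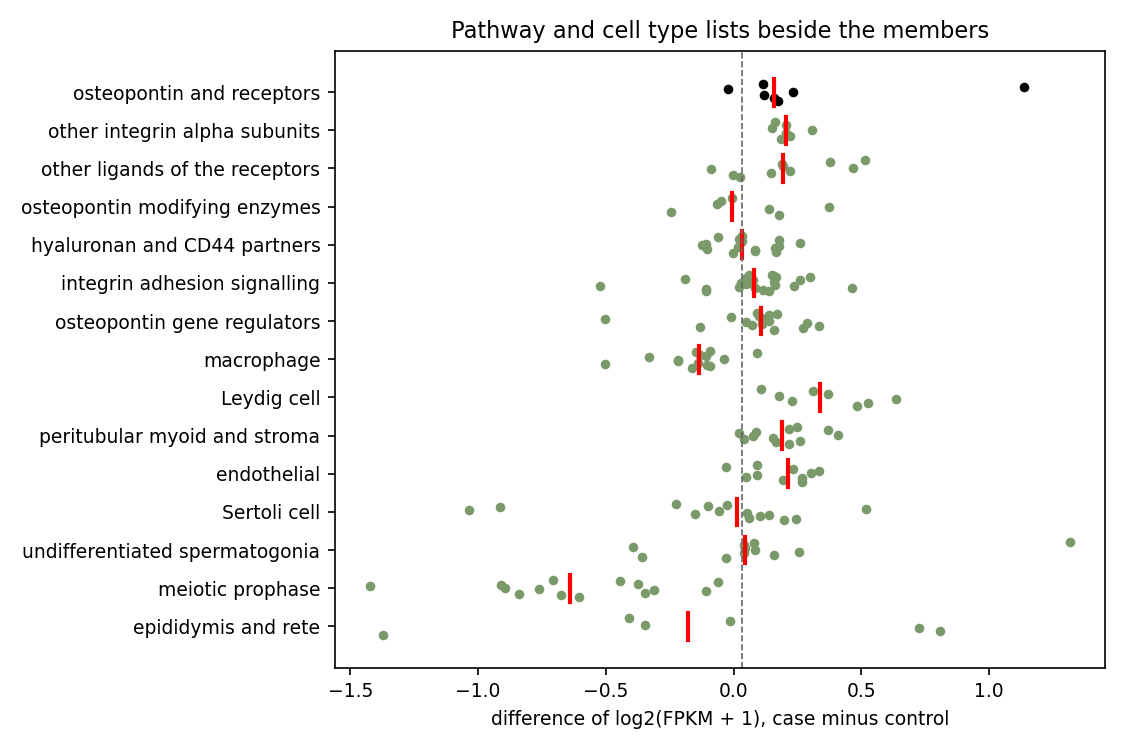
Differences of log2(FPKM + 1), case minus control, for genes with a mean of at least 1 FPKM in each list with 5 or more such genes, with 1 point per gene, a red bar at the list's median and a dashed line at the median of all genes (0.03). Spp1 is the black point at 1.14, and the other 6 black points, the integrin chains, lie between -0.02 and 0.23.

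Markers of cell types that could carry these transcripts differed in direction between lists. Macrophages are a known source of osteopontin, and of 14 macrophage markers with a mean of at least 1 FPKM, 1 was higher and 13 were lower in the case column, with a summed level of 121 against 146 FPKM. Lyz2 was at 31.9 and 45.6 FPKM, C1qc at 13.3 and 15.7 FPKM and Tyrobp at 12.5 and 16.0 FPKM. Whether macrophages held the Spp1 transcript was not tested. Markers of Leydig cells (8 of 8 higher, summed level 386 and 305 FPKM), of peritubular myoid cells and stroma (12 of 12 higher, 1104 and 961 FPKM) and of endothelium (9 of 10 higher, 52.4 and 44.3 FPKM) were higher in the case column, as were 5 of the 6 receptor genes with a mean of at least 1 FPKM. By name, Leydig cell Hsd3b1 was at 109 and 92.5 FPKM and Nr5a1 at 53.4 and 49.5 FPKM, stromal Acta2 at 318 and 274, Col3a1 at 177 and 149 and Dcn at 168 and 165 FPKM, and endothelial Cdh5 at 16.2 and 14.0, Eng at 9.76 and 7.73 and Pecam1 at 5.50 and 4.40 FPKM. Leydig cell Hsd17b3 was the 1 gene of these 3 lists past 1.5-fold, at 38.7 and 24.6 FPKM, and was named after its values were seen. The list medians of these 3 cell types were 0.34, 0.19 and 0.21. The differences of the members on that scale were 0.23 for Itgav, 0.17 for Itga4 and 0.16 for Itgb3. They were 0.12 for Itga9, 0.12 for Itgb1, -0.02 for Itgb5 and 1.14 for Spp1. The part of these cell types in the values of the members was not tested.

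Sertoli cell markers were split, 7 higher and 7 lower, with sums of 3754 and 3792 FPKM, Cst9 being at 596 and 416 FPKM and Inha at 337 and 343 FPKM. Of these, 2 were past 1.5-fold, both lower: Rhox5 at 8.90 and 19.3 FPKM and Tsx at 6.27 and 12.7 FPKM, named after their values were seen. Meiotic prophase markers were lower in 14 of 14, with a median of -0.64 and sums of 380 and 547 FPKM. Of these, 8 were past 1.5-fold, where 1.41% of all genes were lower by that fold. Sycp3, among the 8, has status FAIL in the authors' deposited table and so no usable p-value. Sycp1 was at 38.5 and 59.1 FPKM and Syce2 at 82.9 and 89.3 FPKM. The 11 markers of undifferentiated spermatogonia had a median of 0.05, with 8 higher and 3 lower. Foxo1 (19.1 and 18.0 FPKM) and Zbtb16 (16.8 and 14.9 FPKM) were among the 8. So was Lin28a, the targeted gene itself, which was the only 1 of the list past 1.5-fold. The 3 lower were Id4 (4.94 and 6.61 FPKM), Utf1 (1.71 and 2.56 FPKM) and Gfra1 (6.83 and 6.99 FPKM), named after their values were seen. Of the epididymis and rete list, Lcn8, Lcn9 and Defb30 were listed at 0 in both columns. Epcam, Cst8 and Krt18 were at 32.4 and 43.4, 17.6 and 9.65, and 2.85 and 2.89 FPKM. In that list 6 genes had a mean of at least 1 FPKM, with a median of -0.18. Of these 6, 2 were higher and 4 lower in the case column. Past 1.5-fold were Cst8 (1.83-fold) and Cst11 (2.12-fold), both higher, and Crisp1 (8.69-fold) and Krt8 (1.62-fold), both lower. Cst11, Crisp1 and Krt8 were named after their values were seen. Red blood cell genes, such as Hba-a1 at 667 and 629, Hbb-bt at 96.9 and 96.2 and Hbb-b2 at 18.2 and 23.4 FPKM, had a median of 0.04. Which cells held the Spp1 transcript was not tested.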

How the data were processed

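RNA-seq of mouse testis at postnatal day 10 (3 libraries labelled Lin28a knockout, 3 labelled wild type) was analysed from 1 deposited table. The submitters' processing notes name TopHat2 (version 2.0.9) and mm10. Which program computed the expression values, and how it used the replicate libraries, is not stated in them. The authors deposited FPKM as 1 value per group for each RefSeq transcript row. Per the file headers, they also deposited p-values and q-values, a log2 ratio and a test status. The deposited ratio was control over case to within 5.01e-05, and all directions here are case against control. The q-values matched a Benjamini-Hochberg adjustment of the 13629 rows that had status OK, within 2.26e-06.

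Member rows were those whose deposited name equals a member's in any letter case. Symbols for all other genes came by accession from a RefSeq table of GRCm38.p6 (29071 of 29660 accessions, 98.0%). Starts were counted from 0 in the table, and 1 was added. FPKM was summed over a gene's rows (Python 3.11.15, pandas 2.3.3), and log2(FPKM + 1) differences, which understate the change of low genes, were taken; fold differences use FPKM itself. Counts and medians of lists and of all genes use genes with a mean of at least 1 FPKM; the median over all 8 members in the closing section includes Cd44, which is below it. Calls are the authors' q-value under 0.05 or a fold of at least 1.5. No test over libraries was possible with 1 pooled value per group, and depth is unknown. The fold caller and motif search were tested on simulated data.

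The members and gene lists were chosen with earlier results of these data known. Genes named are all members, Lin28a, the 3 genes of highest mean FPKM in each list, those of the pathway lists past 1.5-fold, and others where the text says so. No gene is named for a pattern like a member's, since 2 pooled values give a single ratio.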

Additional observations from a re-analysis of the deposited data

How the results depend on the processing

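The Spp1 difference of 1.14 on the log2(FPKM + 1) scale ran from 1.10 to 1.16 over 5 alternatives: the row of highest FPKM alone, rows with status FAIL left out, columns rescaled by the median of ratios (1.03, case over control), quantile normalization, and a pseudocount of 0.1. The median difference of the 8 members, 0.14, ran from 0.10 to 0.17. Of 40 member values under these alternatives, 0 moved by 0.1 or more. Part of this outcome was fixed beforehand. No member row had status FAIL, and taking the row of highest FPKM cannot change a gene with signal in 1 row. A column factor of 1.03 can shift a difference only slightly. The sign of the Cd44 difference (0.0023) turned in 3 of 5, down to -0.041, so it has no direction, and Itgb5 stayed below 0 in all 5. Spp1 was the 1 member past the fold at 1.5, at 2 and at a fold below 1.5 that was also tried, under both rescalings, with top rows, without FAIL rows, and with no filter or a mean of at least 5 FPKM. No member row passed the authors' q-value at 0.10, or when the tested rows with a mean of at least 1 FPKM were adjusted again (q = 0.170 for the main Spp1 row). Of 14 lists with 5 or more genes, 8 had a median above that of all genes, and 8 to 10 of the 14 did so under the 5 alternatives. With no filter it was 10 of 16 lists, and at a mean of at least 5 FPKM 7 of 10. Of 94 list medians, 4 moved by 0.1 or more: with no filter, other alpha chains to 0.09, other ligands to 0.09 and the epididymis list to -0.0062; and at a mean of at least 5 FPKM, meiotic prophase to -0.52. Leaving out each library was not run, because the table holds no value per library. No paired analysis was possible because the libraries of a group were merged into 1 value. No interval is given, since the depth behind the values is unknown.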
